A study of Drosophila melanogaster with 12 samples.

Results

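Small RNAs of ovaries from control XX females were set against small RNAs of testes from control XY males of Drosophila melanogaster, in 4 of the 12 libraries of a study of added Y chromosomes. The comparison covers the 820 rows, each 1 strand of 1 listed entry, that both deposited tables hold outside the spike-in class, of 981 rows in all. The ovaries (genotype labelled X^X and written XX here, with no Y chromosome in the label) and the testes (labelled X^Y, written XY here) came from flies 2 days old. The flies were reared at 23 °C. Each group had 2 biological replicates, given as replicate 1 and replicate 2 in that order throughout. The series was designed to compare each control with flies of the same sex that carry an added Y chromosome, so the contrast of the control tissues crosses its own contrasts. Tissue, sex and the presence of a Y chromosome differ together here and cannot be told apart.

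PIWI-interacting RNAs (piRNAs) are small RNAs that guide PIWI proteins to transposon transcripts and transposon chromatin in the gonads. In the fly ovary they are made both in germ cells and in the somatic follicle cells, where the flamenco locus supplies piRNAs against errantiviruses such as gypsy, ZAM and Idefix. In the fly testis an abundant set comes from the Suppressor of Stellate repeats of the Y chromosome and silences the Stellate genes of the X chromosome. Small RNA libraries also hold fragments of tRNA, snoRNA and rRNA, and the tables used here give no read lengths that would separate these kinds of molecule.

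The ovary libraries held 897596 and 1285309 non-spike reads and the testis libraries 589490 and 1310076. The transposon and repeat class, written TE as in the tables, held 231234 and 287873 reads in ovary and 74937 and 320726 in testis. The 2 tables were normalized separately, so every level set across them is a share of the reads of its own class in its own library, which a single scale factor per library cannot change. Shares are not corrected for the length of an entry and are compared between tissues, not between entries. The tables list no protein-coding cell type markers, so the labelled tissues were not checked against such markers. The male germline repeat described next was high in both testis libraries. It comes from the Y chromosome, so it cannot check the tissue apart from the presence of a Y. As RNA came from whole organs, fewer cells of a type and less RNA per cell cannot be told apart.

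Suppressor of Stellate, listed as Suste, had the largest ratio between the tissues among the rows of the small classes. Its Minus strand gave 0.190 and 0.189 reads per 100 reads of the TE total in ovary and 58.2 and 61.7 in testis. The testis libraries were both higher, by 316-fold in the means of 0.190 ± 0.000682 and 59.9 ± 2.47 (SD, n = 2). The Plus strand gave 0.0778 and 0.0573 per 100 TE reads in ovary and 2.08 and 1.92 in testis, a 29.7-fold difference of means. Both strands lay apart between the tissues, without overlap. No test was made for classes this small, and an exact 2 against 2 test cannot go below p = 0.333.

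Satellite reads showed the same direction for one repeat and the opposite one for another. The Minus strand of the AAGAG satellite, a simple repeat of pericentromeric heterochromatin, gave 0.0195 and 0.0163 reads per 100 TE reads in ovary and 1.34 and 0.930 in testis, 63.5-fold higher in testis. The Minus strand of the dodeca satellite, a repeat of the third chromosome's centromeric heterochromatin, gave 0.0259 and 0.0236 in ovary and 0.00934 and 0.0103 in testis, 2.53-fold lower in testis. Neither pair of tissues overlapped. The other 5 satellite rows were listed in the testis table only.

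Ribosomal RNA reads on the Plus strand of the 45S unit did not separate the tissues, at 217 and 274 per 100 TE reads in ovary and 524 and 158 in testis. Reads on its Minus strand were far fewer, at 0.0294 and 0.0344 in ovary and 0.358 and 0.303 in testis. The Minus strand was higher in both testis libraries, by 10.4-fold in the means. Mitochondrial tRNA rows summed to 0.0324 and 0.0681 per 100 TE reads in ovary and 0.208 and 0.191 in testis, 3.97-fold higher, while the summed mitochondrial gene rows overlapped.

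The classes themselves took different parts of the libraries. The snoRNA class made up 9.91% and 8.92% of the non-spike reads in ovary and 2.01% and 1.85% in testis. The tRNA class, listed as tDNA, made up 7.38% and 6.25% in ovary and 10.6% and 18.8% in testis, where the reads of identical gene copies count once for each copy. With identical rows counted once it made up 1.58% and 1.31% in ovary and 2.23% and 4.21% in testis. Suste made up 0.0691% and 0.0552% in ovary and 7.66% and 15.6% in testis. The snoRNA share was lower and the tRNA and Suste shares higher in both testis libraries. The TE class took 25.8% and 22.4% in ovary and 12.7% and 24.5% in testis, which overlap. With rDNA left out of the total, the TE class took 58.6% and 58.1% in ovary and 38.1% and 40.0% in testis, lower in both testis libraries.

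**Figure D1:**
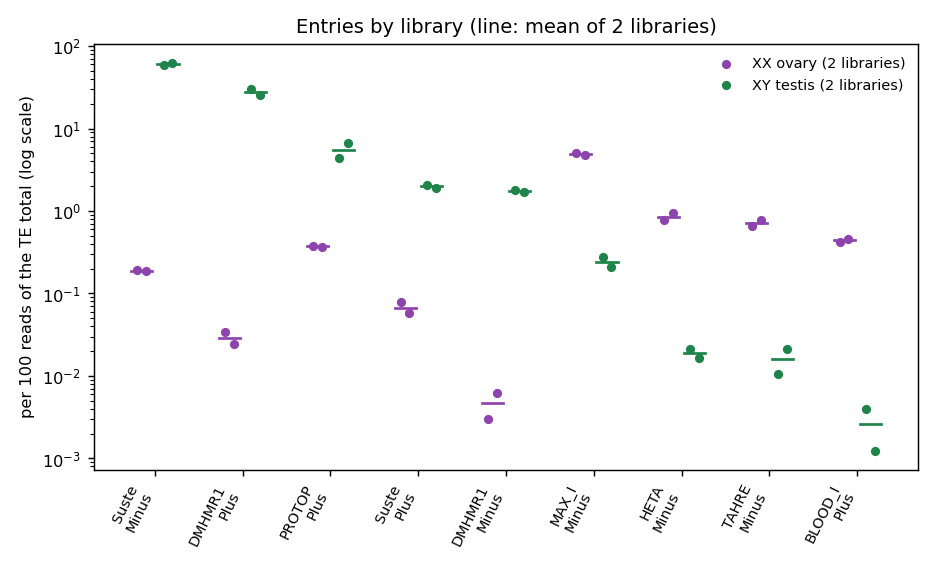
Reads of 9 rows per 100 reads of the TE total (log scale) in each of the 2 XX ovary and 2 XY testis libraries; points are libraries and lines are means of 2. Suste, DMHMR1 and PROTOP lie higher in both testis libraries (Suste Minus 59.9 against 0.190), and MAX_I, HETA, TAHRE and BLOOD_I lie lower (MAX_I Minus 0.243 against 4.86).

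Within the TE class, testis reads were concentrated on few rows. The 5 highest rows held 21.5% and 20.3% of TE reads in ovary and 51.5% and 51.0% in testis. It took 18 rows in each ovary library and 5 in each testis library to reach 50% of TE reads. The median TE row differed by -1.43 on the log2 scale, and by -0.88 with DMHMR1, 5S_DM and NTS_DM left out of the TE total, when 49 rows were higher and 133 lower. Values relative to the median TE row, from shares centred on the median of the class in each library, are given beside the main ones where they change a direction.

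Differences in share were tested with limma on log2((value + 1)/class total) for the 688 rows with a mean of at least 5, and called at a Benjamini-Hochberg adjusted p under 0.05. All adjusted p-values of rows come from this fit, and ± after a log2 difference is its standard error. The added 1 can make the differences of low rows too small, most of all for falls into the smaller testis libraries. Where the class total is smaller in testis, as for snoRNA, it can make rises of low rows too large. The median snoRNA difference was -0.25 with 0.5 added, -0.07 with 1 and 0.43 with 5. The libraries of the tissues did not overlap in 82.7% of all rows, 91.1% of TE rows, 86.4% of tRNA rows and 63.7% of snoRNA rows, so a lack of overlap alone is common. Over all classes 399 rows (58.0%) were called, 150 (21.8%) higher and 249 (36.2%) lower in testis. Without ovary replicate 1 or 2 the number called was 244 and 250. Among the 282 TE rows tested 203 (72.0%) were called, of which 39 (13.8%) were higher and 164 (58.2%) lower in testis. Relative to the median TE row the split was 100 higher and 88 lower. Without ovary replicate 1, 107 TE rows were lower. Of the TE rows, 60 averaged under 5 in testis and passed the filter only through ovary, and 50 of them were called lower. Among the other 222 TE rows 114 were lower and 39 higher, including TV1I Minus, which passed the filter only through testis. The counts by list below include rows of both kinds and are to be read beside these counts over all TE rows. Called rows named below that passed only through ovary include BLOOD_I Plus, I_DM Plus, BARI_DM Plus, R2_DM Plus and Copia1-LTR_DM Plus. Others are GYPSY8_I Minus, Chouto_I Minus, TRANSPAC_I Minus and Transib5 Minus. The calls of these rows carry that limit. Where most rows are called, a call alone marks no element, so sizes and library values are given.

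**Figure D2:**
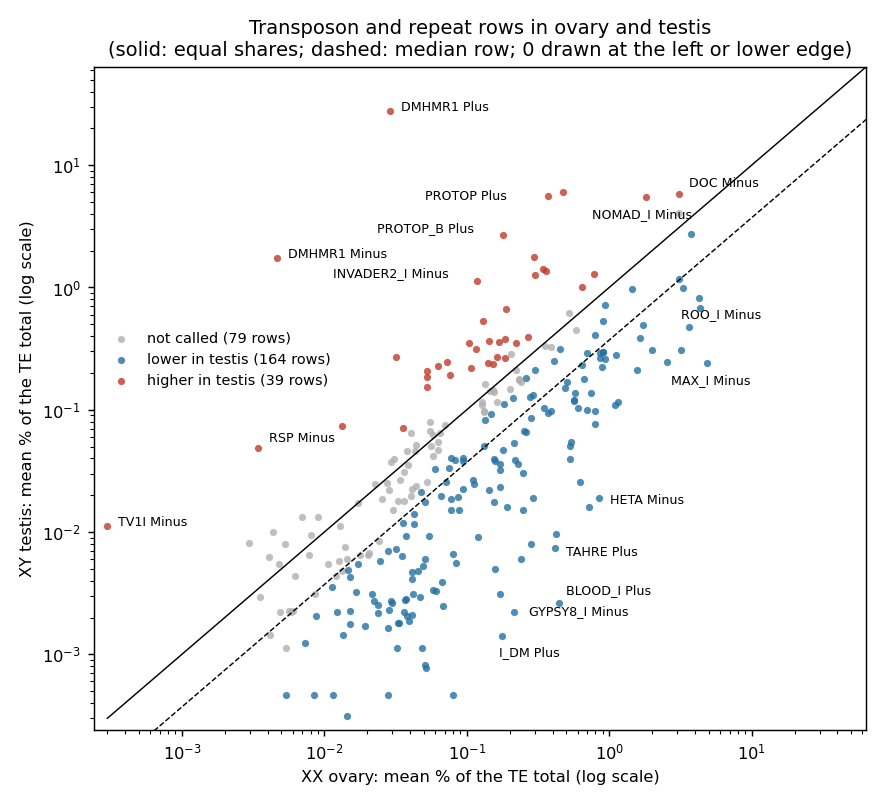
Mean share of the TE total in XX ovary (x) and XY testis (y), both in percent on log scales, for the 282 TE rows tested; colours give the call, the solid line equal shares and the dashed line the median row. DMHMR1 Plus stands at 27.8% in testis against 0.0290% in ovary, and 164 rows were called lower in testis.

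DMHMR1, a repeat listed in the TE class, differed most among the TE rows tested. Its Plus strand took 0.0337% and 0.0243% of TE reads in ovary and 30.5% and 25.2% in testis. The means were 0.0290% ± 0.00666 and 27.8% ± 3.77 (SD, n = 2), a log2 difference of 9.89 ± 0.20 (adjusted p = 1.28e-06). The Minus strand took 0.00303% and 0.00625% in ovary and 1.81% and 1.69% in testis (log2 difference 8.50 ± 0.34, adjusted p = 2.19e-05). Both testis libraries exceeded both ovary libraries on each strand. The related entry DMHMR2 is listed in the ovary table only.

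The Hoppel group (PROTOP, PROTOP_A and PROTOP_B), DNA transposons related to the P element, was higher in testis in all 6 rows, with a median log2 difference of 2.75. The 6 rows together took 2.26% and 2.17% of TE reads in ovary and 14.1% and 19.1% in testis. Copies of these elements lie within the Suppressor of Stellate repeats, and the related entries may share reads, since the handling of reads with several matches is not given in the sources used here.

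PROTOP Plus took 0.376% and 0.368% of TE reads in ovary and 4.44% and 6.69% in testis (log2 difference 3.87 ± 0.20, adjusted p = 3.51e-05). PROTOP_A Plus took 0.479% and 0.463% in ovary and 4.88% and 7.24% in testis (3.66 ± 0.20, adjusted p = 3.65e-05). PROTOP_B Plus took 0.187% and 0.172% in ovary and 2.38% and 2.94% in testis (3.88 ± 0.16, adjusted p = 2.19e-05). On the Plus strand, every testis value of the 3 entries exceeded every ovary value. The Minus strands rose less, with log2 differences of 0.72 for PROTOP, 0.68 for PROTOP_A and 1.83 for PROTOP_B.

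Among the 15 rows of other DNA transposons with terminal inverted repeats, 7 were lower and 1 (POGO Minus) was higher, with a median log2 difference of -1.46, close to that of all TE rows. Relative to the median TE row 6 were higher and 5 lower. BARI_DM Plus, of the Tc1-mariner superfamily, took 0.0670% and 0.0702% of TE reads in ovary, 0 reads in testis replicate 1 and 0.00499% in replicate 2. That row was lower by the test (log2 difference -4.64 ± 0.71, adjusted p = 0.00173), a call lost without either ovary library (adjusted p = 0.0528 and 0.0535). Transib5 Minus had 132 and 116 reads in ovary and 1 and 3 in testis (-4.50 ± 0.47, adjusted p = 0.000306). Both rows were low in both testis libraries, without overlap.

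INE-1, listed as DNAREP1_DM and a short Helitron relative that is abundant in heterochromatin, was lower on both strands. Its Minus strand took 0.0515% and 0.0472% of TE reads in ovary and 0.00267% and 0.00779% in testis (log2 difference -3.09 ± 0.47, adjusted p = 0.00179). Its Plus strand differed by -1.52 ± 0.32 (adjusted p = 0.00758), and by -0.12 relative to the median TE row. The tissues did not overlap on either strand. Without ovary replicate 1 or 2 the adjusted p was 0.0555 and 0.0516 for Minus, and 0.115 and 0.0898 for Plus.

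The telomere retrotransposons, which form the ends of fly chromosomes in place of telomerase repeats, were lower in testis in 7 of 8 rows with a median log2 difference of -3.93. Together they took 5.52% and 6.36% of TE reads in ovary and 0.615% and 0.667% in testis. Relative to the median TE row 7 of the 8 rows were still lower and 1 was higher.

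HETA Minus, the HeT-A element that makes up much of the telomeric array, took 0.770% and 0.937% of TE reads in ovary and 0.0214% and 0.0165% in testis (log2 difference -5.42 ± 0.23, adjusted p = 2.19e-05). HETA Plus took 0.632% and 0.607% in ovary and 0.0240% and 0.0274% in testis (-4.54 ± 0.19, adjusted p = 2.19e-05). TAHRE, its relative with a reverse transcriptase, was lower by -5.46 ± 0.32 on Minus and by -5.66 ± 0.29 on Plus, with 4 and 30 Plus reads in testis. The ovary libraries were the higher ones for all 4 rows.

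TART, the third telomere element, fell less. TART Minus took 1.81% and 2.22% of TE reads in ovary and 0.294% and 0.324% in testis (log2 difference -2.69 ± 0.16, adjusted p = 3.67e-05), and TART Plus differed by -3.33 ± 0.23. TART_B1 Plus differed by -2.25 ± 0.30 (adjusted p = 0.000943). TART_B1 Minus took 0.115% and 0.196% in ovary and 0.111% and 0.168% in testis, which overlap (-0.13 ± 0.33, adjusted p = 0.744); relative to the median TE row it was higher by 1.27 (adjusted p = 0.0216). The 3 entries of the separate telomeric class, named by accession only, summed to 2.81 and 3.20 reads per 100 TE reads in ovary and 0.195 and 0.266 in testis, 13.1-fold lower in testis with no test. One of the 3 entries repeats the TART_B1 values in these libraries, and the others lay near TAHRE (1532 against 1517 Minus reads in ovary replicate 1) and HETA (1875 against 1781). Their sum is therefore not separate evidence.

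HETRP_DM, a tandem repeat listed in the TE class, was also lower. HETRP_DM Minus took 0.622% and 0.587% of TE reads in ovary and 0.101% and 0.105% in testis (log2 difference -2.54 ± 0.16, adjusted p = 3.87e-05). HETRP_DM Plus varied more between replicates, with 0.618% and 1.16% in ovary and 0.0921% and 0.359% in testis (-2.21 ± 0.62, adjusted p = 0.0230). The Plus call was lost without ovary replicate 1 (adjusted p = 0.107) or 2 (0.226), although the libraries of the tissues did not overlap.

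The rDNA retrotransposons R1 and R2, which insert into 28S rRNA genes, were lower in all 4 rows. R1_DM Plus took 2.63% and 2.48% of TE reads in ovary and 0.267% and 0.222% in testis (log2 difference -3.39 ± 0.15, adjusted p = 2.40e-05). R1_DM Minus took 2.92% and 3.24% in ovary and 1.21% and 1.13% in testis (-1.39 ± 0.12, adjusted p = 0.000156). Ovary was higher on both R1 strands, though relative to the median TE row R1_DM Minus differed by only 0.01 (adjusted p = 0.948). R2_DM Minus had 128 and 135 reads in ovary and 3 and 26 in testis (-2.90 ± 0.41, adjusted p = 0.00121). R2_DM Plus had 62 and 59 reads in ovary and 0 and 14 in testis, a call lost without ovary replicate 1 (adjusted p = 0.104) or 2 (0.0842).

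LINE retrotransposons, which move by target-primed reverse transcription, were lower in 39 of 51 rows and higher in 3, with a median log2 difference of -1.86. Against the median TE row 21 were lower and 11 higher. The I element, known from hybrid dysgenesis, was among the lowest: I_DM Plus took 0.187% and 0.170% of TE reads in ovary, 0 reads in testis replicate 1 and 0.00281% in replicate 2 (-6.35 ± 0.53, adjusted p = 0.000122). In XY replicate 1 a count of 0 allows a share of up to 0.00400%, a limit from counting error only. Jockey Minus took 0.419% and 0.432% in ovary and 0.0107% and 0.00842% in testis (-5.34 ± 0.25, adjusted p = 2.43e-05). DMRT1B Minus, of the Rt1 family, was the second highest TE row of the ovary by its mean, with 4.35% and 4.30%, and took 0.669% and 0.691% in testis (-2.67 ± 0.11, adjusted p = 2.19e-05). For these 3 rows both testis libraries lay below both ovary libraries.

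Doc and BAGGINS1 went the other way among the LINE elements. DOC Minus took 3.26% and 2.98% of TE reads in ovary and 5.81% in each testis library (log2 difference 0.90 ± 0.11, adjusted p = 0.000492). BAGGINS1 Minus took 0.301% and 0.291% in ovary and 1.59% and 1.99% in testis (2.59 ± 0.16, adjusted p = 3.85e-05). Both were higher in each testis library. The F element, listed as FW, had 3.89% and 3.66% on Minus in ovary and 2.82% and 2.70% in testis (-0.45 ± 0.11, adjusted p = 0.0123). That difference turned to 0.95 relative to the median TE row, and its call was lost without ovary replicate 1 (adjusted p = 0.185) or 2 (0.119).

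LTR retrotransposons of the gypsy group, the largest list, were lower in 67 of 112 rows and higher in 13, with a median log2 difference of -1.47, close to that of all TE rows. Relative to the median TE row 33 were higher and 35 lower. GYPSY8_I Minus had 515 and 600 reads in ovary and 1 and 10 in testis (-6.07 ± 0.35, adjusted p = 3.67e-05). Chouto_I Minus had 179 and 239 reads in ovary and 0 and 3 in testis (-5.74 ± 0.42, adjusted p = 6.80e-05). TRANSPAC_I Minus had 382 and 514 reads in ovary and 3 and 7 in testis (-5.44 ± 0.39, adjusted p = 6.53e-05). These 3 rows had 10 reads or fewer in each testis library. BURDOCK_I Plus took 0.263% and 0.221% of TE reads in ovary and 0.00400% and 0.00811% in testis (-5.13 ± 0.34, adjusted p = 5.08e-05). DM297_I Minus, the abundant 297 element, took 3.73% and 3.55% in ovary and 0.435% and 0.514% in testis (-2.94 ± 0.14, adjusted p = 2.40e-05).

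Among the gypsy group rows higher in testis, INVADER2_I Minus took 0.0973% and 0.139% of TE reads in ovary and 1.14% and 1.13% in testis (log2 difference 3.28 ± 0.21, adjusted p = 3.85e-05). NOMAD_I Minus took 1.85% and 1.80% in ovary and 5.00% and 6.06% in testis (1.59 ± 0.13, adjusted p = 0.000117). Both testis libraries were the higher ones for each. TV1I Minus had 0 reads in both ovary libraries and 12 and 20 in testis. It met the minimum level only through its testis values. Its call is included in the counts of rows higher but is not read as a result.

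The errantiviruses that flamenco controls in follicle cells differed among themselves: 9 of 21 rows were lower and 2 higher, with a median log2 difference of -0.90. The direction of the median turned relative to the median TE row, to 0.50, with 8 rows higher and 4 lower. Among all 282 TE rows that setting gave 100 higher and 88 lower, so the 8 higher rows alone mark no trait of this list. GYPSY_I Minus took 0.250% and 0.247% of TE reads in ovary and 0.0347% and 0.0265% in testis (-2.99 ± 0.24, adjusted p = 9.90e-05). ZAM_I Minus took 0.0506% and 0.0584% in ovary and 0.00801% and 0.0106% in testis (-2.41 ± 0.34, adjusted p = 0.00116). TABOR_I Minus took 0.842% and 0.890% in ovary and 0.248% and 0.284% in testis (-1.70 ± 0.15, adjusted p = 0.000156), or -0.29 (adjusted p = 0.163) relative to the median TE row. Gypsy, ZAM and Tabor were lower in both testis libraries.

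The QUASIMODO_I and QUASIMODO_LTR entries went the other way on Minus, while their Plus rows were not called. The QUASIMODO2 entries, outside this list, were lower. QUASIMODO2-I_DM differed by -2.38 on Minus (adjusted p = 0.000185) and -3.28 on Plus (0.00785), and QUASIMODO2-LTR_DM Minus by -3.99 (0.00521). QUASIMODO_LTR Minus took 0.0515% and 0.0535% of TE reads in ovary and 0.169% and 0.203% in testis, both higher (log2 difference 1.82 ± 0.21, adjusted p = 0.000492). QUASIMODO_I Minus was higher by 0.52 ± 0.18 (adjusted p = 0.0438), and this call was lost without ovary replicate 1 (adjusted p = 0.0941) or 2 (0.215) and without testis replicate 1 (0.0503). The Idefix rows were not called: IDEFIX_I differed by 0.28 on Minus and 0.84 on Plus, and IDEFIX_LTR by -0.03 and -0.05. Relative to the median TE row IDEFIX_I was higher by 1.68 on Minus (adjusted p = 0.000757) and 2.25 on Plus (0.0229), IDEFIX_LTR Minus turned to 1.38 (0.00157), and IDEFIX_LTR Plus turned to 1.35 without a call (0.0921).

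The 3 Gtwin rows had lower values in both testis libraries, none of them called in the fit of all 4 libraries. GTWIN_I Minus took 0.124% and 0.132% in ovary and 0.109% and 0.108% in testis (-0.23 ± 0.19, adjusted p = 0.354), and relative to the median TE row it was higher by 1.18 (adjusted p = 0.00318). GTWIN_I Plus differed by -1.46 (adjusted p = 0.0637), with 13 and 15 reads in ovary and 1 and 3 in testis. GTWIN_LTR Minus differed by -0.90 (adjusted p = 0.0899), which turned to 0.50 relative to the median TE row (adjusted p = 0.313); without testis replicate 2 it was called lower (-1.35, adjusted p = 0.0121).

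BEL/Pao elements were lower in 18 of 25 rows and higher in 2, with a median log2 difference of -1.18; relative to the median TE row 9 were higher and 10 lower. MAX_I Minus, the highest TE row in each ovary library, took 5.01% and 4.72% of TE reads there and 0.276% and 0.210% in testis (-4.33 ± 0.17, adjusted p = 2.19e-05). ROO_I Minus took 4.49% and 4.07% in ovary and 0.721% and 0.924% in testis (-2.39 ± 0.15, adjusted p = 4.44e-05). Both were far lower in each testis library. DIVER2_LTR Plus moved the other way, with 0.0545% and 0.0514% in ovary and 0.250% and 0.164% in testis (1.93 ± 0.26, adjusted p = 0.00102).

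The mdg1 and mdg3 group was lower in 16 of 33 rows and higher in 3, with a median log2 difference of -0.72, and turned to 15 higher and 8 lower relative to the median TE row. BLOOD_I Plus showed the largest fall of all TE rows, from 0.419% and 0.462% of TE reads in ovary to 0.00400% and 0.00125% in testis, where it had 3 and 4 reads (-7.07 ± 0.48, adjusted p = 5.08e-05). BLOOD_I Minus fell less, with 0.544% and 0.521% in ovary and 0.0534% and 0.0486% in testis (-3.36 ± 0.18, adjusted p = 3.65e-05). MDG3_DM Minus took 0.363% and 0.354% in ovary and 1.24% and 1.51% in testis (1.93 ± 0.15, adjusted p = 9.90e-05). None of these rows overlapped between tissues.

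Copia elements were the one LTR list with more rows higher than lower in testis: 7 of 14 were higher and 2 lower, with a median log2 difference of 0.92. Relative to the median TE row 12 were higher and none lower, where the 2 Copia1-LTR_DM rows were not called. COPIA_DM_I Minus took 0.366% and 0.316% of TE reads in ovary and 1.32% and 1.52% in testis (2.06 ± 0.15, adjusted p = 7.81e-05). COPIA2LTR_DM Plus took 0.0251% and 0.0389% in ovary and 0.248% and 0.295% in testis (3.10 ± 0.28, adjusted p = 0.000156). Copia1-LTR_DM Plus took 0.0164% and 0.0139% in ovary and 0.00267% and 0.00187% in testis (-2.26 ± 0.49, adjusted p = 0.00861). That call was lost without ovary replicate 1 (adjusted p = 0.0544).

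**Figure D3:**
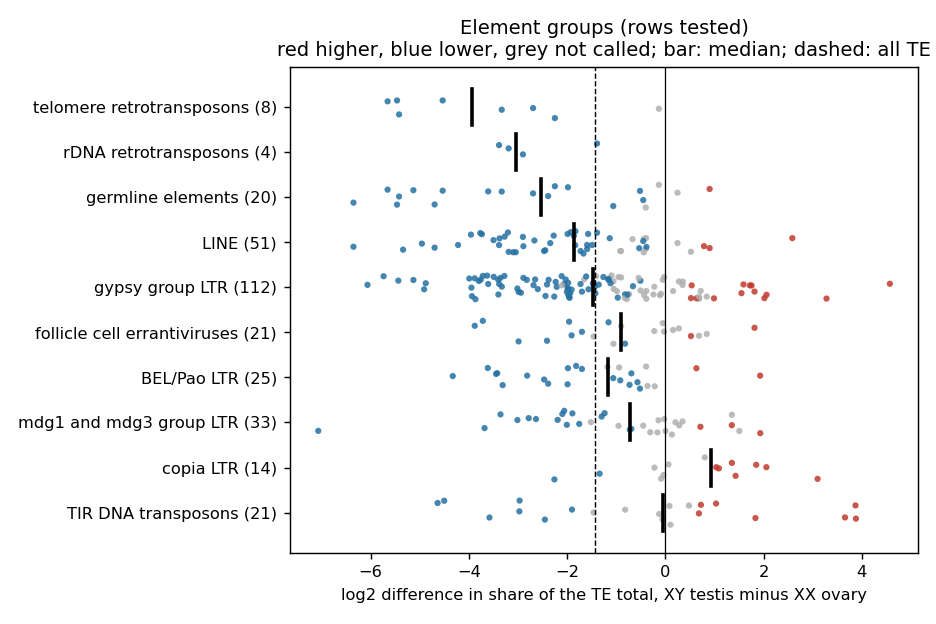
Log2 difference in share of the TE total, XY testis minus XX ovary, for each row of 10 element lists (number of rows in brackets); colours give the call, bars the list medians and the dashed line the median of all TE rows (-1.43). The telomere list lies lowest (median -3.93) and the copia list highest (0.92).

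A list of 20 rows from elements silenced mainly in germ cells, which shares members with the telomere, LINE and BEL/Pao lists, was lower in 16 rows and higher in 1 (DOC Minus), with a median log2 difference of -2.54. Set against the median TE row, 13 were lower and 6 higher. Its rows together took 19.9% and 19.5% of TE reads in ovary and 11.4% and 11.6% in testis. Reads of the Responder satellite, listed as RSP in the TE class and known as the target of Segregation Distorter, were few. RSP Minus had 7 and 11 reads in ovary and 30 and 185 in testis, which is 0.00303% and 0.00382% of TE reads against 0.0400% and 0.0577%, higher in both testis libraries (3.67 ± 0.42, adjusted p = 0.000454).

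A further 87 TE rows were listed in the ovary table only, 44 of them averaging 5 or more in the 2 ovary libraries, and 1 TE row was listed in the testis table only. By list, 37 of the ovary-only rows were of the gypsy group, 16 LINE and 14 terminal inverted repeat elements. A row that a table does not list cannot be read as 0, so these were not compared.

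The strand of the reads was the second comparison. Plus and Minus refer to the listed sequence of each entry, and the ratio within an entry does not depend on the scaling of the tables. Over all TE rows Minus reads made up 71.8% and 71.7% in ovary and 41.3% and 44.0% in testis. With DMHMR1, the Hoppel entries and 5S_DM (the 5S rRNA repeat) left out, the Minus share was 74.2% and 74.8% in ovary and 76.9% and 78.3% in testis. The lower Minus share of the testis total was therefore carried by these few entries. Of 128 TE entries with enough reads on the strands, the median entry had 72.6% Minus reads in ovary and 79.3% in testis.

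The log2 ratio of Plus to Minus was tested in 160 entries of all classes. Within ovary 40 (25.0%) leaned to Plus and 96 (60.0%) to Minus, and within testis 44 (27.5%) and 84 (52.5%). Between tissues the ratio moved toward Plus in testis in 33 entries (20.6%), all of them in the TE class, and toward Minus in 41 (25.6%), 26 of them TE. These counts need both testis libraries: without testis replicate 1 or 2, 11 and 13 entries were called, against 60 and 59 without an ovary library. Sizes and library values are therefore given below for the entries that stood out.

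PROTOP changed its majority strand. Minus reads made up 67.8% and 67.7% of PROTOP in ovary and 22.9% and 15.9% in testis (log2 difference in Plus to Minus ratio 3.15 ± 0.32, adjusted p = 0.00360). PROTOP_A had 31.5% and 32.4% Minus reads in ovary and 6.63% and 4.76% in testis (2.97 ± 0.29, adjusted p = 0.00360). INVADER1_LTR had 18.6% and 19.2% in ovary and 3.12% and 2.41% in testis (2.97 ± 0.31, adjusted p = 0.00360). Each had a smaller Minus share in both testis libraries, and each call was kept when any 1 library was left out. COPIA2LTR_DM had 52.1% and 41.4% Minus reads in ovary and 9.71% and 7.43% in testis (3.19 ± 0.40), a call lost without testis replicate 1 (adjusted p = 0.0628) or 2 (0.0662). MDG1_LTR had 91.7% and 93.3% in ovary and 0% (of 1 read) and 61.1% in testis (3.50 ± 0.87, adjusted p = 0.0240), a call lost without ovary replicate 2 (0.0834) or testis replicate 1 (0.0886) or 2 (0.0545).

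BLOOD_I moved most toward Minus: its Minus share was 56.5% and 53.0% in ovary and 93.0% and 97.5% in testis (log2 difference -3.71 ± 0.46, adjusted p = 0.00435). BAGGINS1 had 67.7% and 70.5% Minus reads in ovary and 95.1% and 94.5% in testis (-3.02 ± 0.26, adjusted p = 0.00360). Suste had 71.0% and 76.8% in ovary and 96.5% and 97.0% in testis (-3.40 ± 0.31, adjusted p = 0.00360). The testis libraries were the more one-sided ones for all 3 entries. The tRNA entries that moved toward Minus, all 12 of them gene copies of 1 kind (Ala-AGC) with near-identical values, stayed almost wholly Plus: tRNA:Ala-AGC-1-1 had 0% and 0.112% Minus reads in ovary and 0.905% and 0.794% in testis (-3.37 ± 0.60, adjusted p = 0.00848). That call was lost without testis replicate 1 (adjusted p = 0.115) or 2 (0.103). The 45S rDNA entry had 0.0135% and 0.0125% Minus reads in ovary and 0.0682% and 0.191% in testis (-3.12 ± 0.59, adjusted p = 0.00988).

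Of the 160 entries, 10 went from a Minus majority in both ovary libraries to a Plus majority in both testis libraries. The opposite change was seen in 3. Of the 10, 9 were TE entries, HETA included, and 1 was the telomeric-class entry that lay near HETA, so these 2 are not separate. That entry, HETA, DNAREP1_DM and TRANSPAC_LTR were not called (adjusted p = 0.0584, 0.0685, 0.0679 and 0.124). Among the entries that switched, DM1731_I had 57.7% and 63.6% Minus reads in ovary and 36.7% and 37.3% in testis (1.39 ± 0.29, adjusted p = 0.0125). NOMAD_LTR went the other way, from 40.3% and 40.7% to 63.4% and 54.9% (-1.09 ± 0.31, adjusted p = 0.0373). Both calls were lost without testis replicate 1 (adjusted p = 0.0909 and 0.111) or testis replicate 2 (0.0866 and 0.0718), and that of NOMAD_LTR also without ovary replicate 1 (0.0821) or 2 (0.0763). STALKER3_LTR had 94.1% and 82.6% Minus reads in ovary and 12.5% and 35.3% in testis (4.29 ± 0.88, adjusted p = 0.0125), and TRANSPAC_I had 75.8% and 86.0% in ovary and 37.5% and 43.8% in testis (2.55 ± 0.44, adjusted p = 0.00848). BURDOCK_I moved to Minus, from 30.1% and 36.8% in ovary to 62.5% and 58.7% in testis (-1.52 ± 0.32, adjusted p = 0.0125). The calls of STALKER3_LTR, TRANSPAC_I and BURDOCK_I, which rest on few testis reads, were also lost without testis replicate 1 (adjusted p = 0.109, 0.101 and 0.0963) or 2 (0.0823, 0.0888 and 0.0888). HETA had 54.9% and 60.7% Minus reads in ovary and 47.1% and 37.6% in testis, which was not called (0.89 ± 0.32, adjusted p = 0.0685) but was without ovary replicate 1 (adjusted p = 0.0352).

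**Figure D4:**
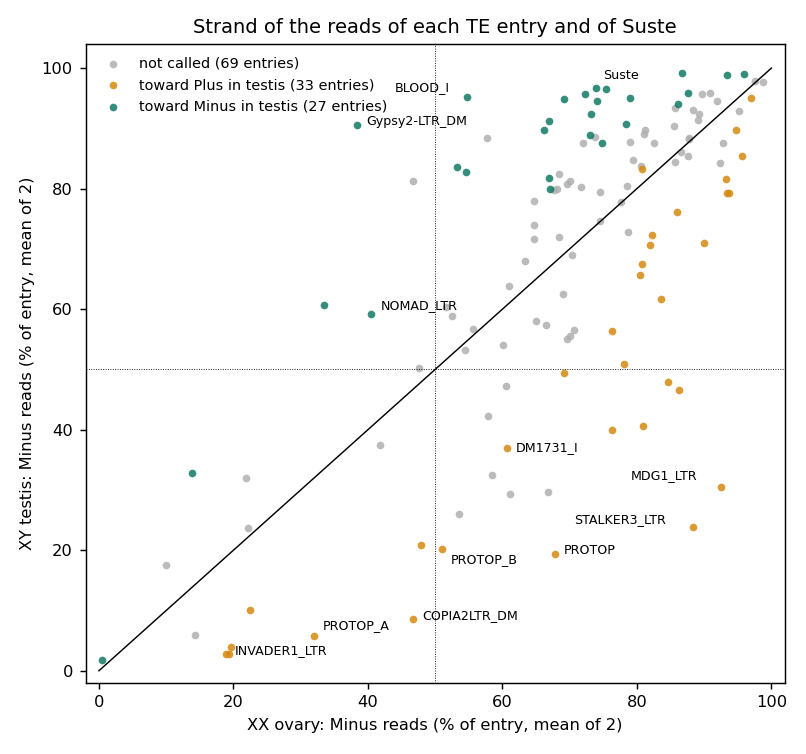
Minus reads as a percentage of each entry's reads in XX ovary (x) and XY testis (y), means of 2 libraries, for 128 TE entries and Suste; the solid line marks equal percentages and dotted lines mark 50%. PROTOP drops from 67.8% to 19.4% and BLOOD_I rises from 54.7% to 95.3%.

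tRNA fragments changed in composition between the tissues. Identical gene copies share their reads, so the 235 rows tested hold 73 distinct sets of values; of these 29 (39.7%) were higher and 17 (23.3%) lower in testis as a share of the tRNA total, and 29 and 13 when each set was counted once in the fit. Over rows, 151 (64.3%) were called, 93 (39.6%) higher and 58 (24.7%) lower, with a median of 0.44, and 81 and 71 relative to the median row. With a minimum mean of 20 the median turned to -0.24, with 58 higher and 50 lower. Of the 235 rows, 52 averaged under 5 in ovary and passed the filter only through testis. The rows called higher include some of these. Without ovary replicate 1 or 2 the rows called were 94 and 91 in all, of which 23 and 23 were lower. Shares by tRNA type below count each distinct set once.

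Fragments of tRNA-Pro were the most enriched in testis, with all 5 sets higher and a median log2 difference of 4.81. They took 0.880% and 0.712% of the tRNA total in ovary and 30.4% and 19.7% in testis, mostly from Pro-TGG, with 0.743% and 0.598% in ovary and 27.5% and 14.1% in testis. Each Pro-TGG copy had 98 and 95 reads in ovary and 3302 and 6569 in testis (4.81 ± 0.33, adjusted p = 5.08e-05). Pro-AGG (4.81 ± 0.56, adjusted p = 0.000489) and Pro-CGG-3-1 (4.82 ± 0.61, adjusted p = 0.000718) differed by a similar amount. Their ovary values were low, at 3 and 3.50 for Pro-AGG and 6 and 1.40 for Pro-CGG-3-1. Both met the minimum level only through their testis values, so their calls carry that limit. The 3 Pro-CGG sets together took 0.114% and 0.0819% of the tRNA total in ovary. Pro-CGG-3-1 was not the only Pro-CGG set under a mean of 5 there. The count of 5 higher Pro sets therefore rests in part on sets that passed only through testis. Ala-CGC had 9 and 6 reads in ovary and 161 and 901 in testis (4.71 ± 0.39, adjusted p = 0.000119). The ovary libraries were low for Pro-TGG and Ala-CGC alike.

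Gly-GCC fragments took 1.11% and 2.18% of the tRNA total in ovary and 17.2% and 21.3% in testis, with both sets higher and a median log2 difference of 3.66. Trp-CCA took 0.0531% and 0.0693% in ovary and 1.24% and 0.907% in testis (3.90 ± 0.36, adjusted p = 0.000156). All 6 Gln sets were higher, with a median of 1.59, and 5 when each set was counted once in the fit. Both sets of initiator Met tRNA were also higher, with a median of 2.33. Together they took 0.0986% and 0.0252% in ovary and 0.408% and 0.306% in testis. Not every initiator Met set reached a mean of 5 in ovary, so these calls carry the limit of rows that passed only through testis. For each of these types both testis libraries exceeded both ovary libraries in their summed share.

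Glu-CTC and His-GTG fragments, which led the ovary libraries together with Ala-AGC, were lower in testis. Glu-CTC took 39.3% and 38.0% of the tRNA total in ovary and 7.18% and 7.97% in testis, with 4 of 4 sets lower and a median log2 difference of -2.30. The Glu-CTC set that fell most had 1561 and 1841 reads in ovary and 206 and 973 in testis (-2.68 ± 0.16, adjusted p = 3.67e-05). His-GTG took 12.3% and 10.8% in ovary and 2.20% and 2.30% in testis (-2.40 ± 0.15, adjusted p = 3.85e-05). Tyr-GTA was lower in 6 of 9 sets, with a median of -1.42, and in 4 when each set was counted once in the fit; its near-identical copies are uncertain as separate results. Ala-AGC took 32.5% and 33.8% in ovary and 23.7% and 28.4% in testis, and its 2 sets were not called when each set was counted once in the fit.

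**Figure D5:**
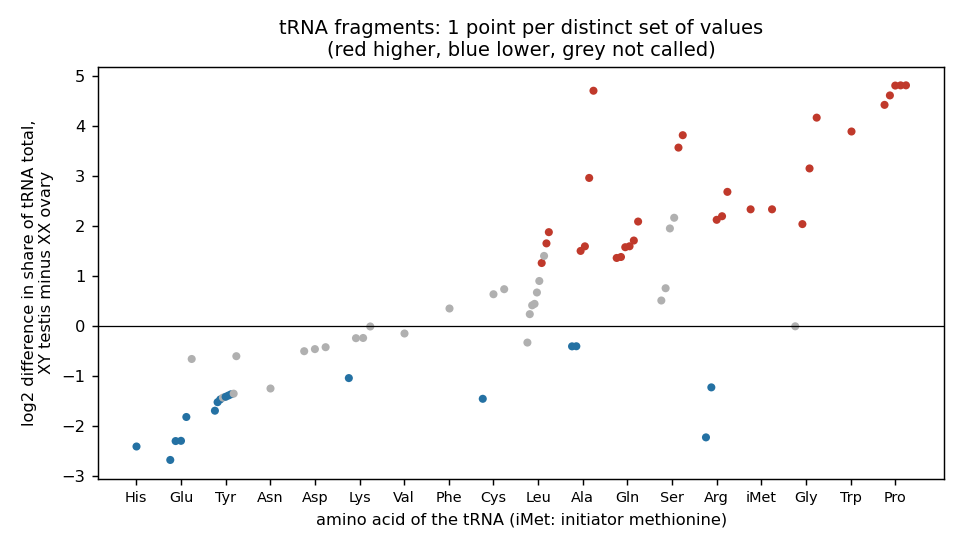
Log2 difference in share of the tRNA total, XY testis minus XX ovary, for the 73 distinct sets of tRNA values, grouped by amino acid in order of the median; colours give the call. His, Glu and Tyr lie lowest and Pro highest, with all 5 Pro sets above 4, some of which passed the filter only through testis.

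The snoRNA class had the fewest calls and the lowest testis depth, with 11862 and 24248 reads against 88958 and 114626 in ovary. Of 171 rows 45 (26.3%) were called, 18 (10.5%) higher and 27 (15.8%) lower in testis, with a median log2 difference of -0.07. With 5 added to each value in place of 1, 57 were higher and 21 lower. Without ovary replicate 1 or 2, 13 and 16 rows were called in all, 7 and 7 of them lower and 6 and 9 higher, and without testis replicate 2, 44 were lower. Of the 171 rows, 59 averaged under 5 in testis and passed the filter only through ovary, and 4 of them were called lower. These 4 include snoRNA:Me28S-G3255b, snoRNA:Me28S-A2634c and the snoRNA with a positional name. snoRNA:Irbp-a, called higher, also averaged under 5 in testis. Among the other 112 rows 17 were higher and 23 lower. The snoRNA rows below are given with these limits.

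Small Cajal body RNAs (scaRNAs), which guide modification of spliceosomal RNAs, were higher in 4 of 5 rows with a median log2 difference of 2.02. scaRNA:MeU2-48 took 0.247% and 0.340% of snoRNA reads in ovary and 0.835% and 1.101% in testis (1.73 ± 0.26, adjusted p = 0.00160). scaRNA:MeU5-C46 took 0.0731% and 0.0419% in ovary and 0.236% and 0.243% in testis (2.14 ± 0.39, adjusted p = 0.00391), a call lost without ovary replicate 2 (adjusted p = 0.0785). The scaRNA list was higher in both testis libraries, at 1.55% and 1.97% of snoRNA reads against 0.440% and 0.571%.

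The snoRNAs named for 2'-O-methylation of 28S rRNA were lower in 18 of 47 rows and higher in 3, with a median log2 difference of -0.88. snoRNA:Me28S-G3255b had 103 and 101 reads in ovary and 1 and 0 in testis (-2.96 ± 0.50, adjusted p = 0.00299). snoRNA:Me28S-G3113b had 275 and 404 reads in ovary and 7 and 18 in testis (-2.13 ± 0.31, adjusted p = 0.00133). Both may share reads with related copies. snoRNA:Me28S-A2634c had 63 and 66 reads in ovary and 1 and 3 in testis (-1.74 ± 0.47, adjusted p = 0.0204), a call lost without ovary replicate 1 (0.0922) or 2 (0.0654) or testis replicate 1 (0.0590). A snoRNA with only a positional name had 42 and 67 reads in ovary and 1 and 1 in testis, and its call (adjusted p = 0.0203) was lost without ovary replicate 2 (0.0608) or testis replicate 2 (0.0537). snoRNA:Me28S-G764 went the other way, with 0.310% and 0.257% of snoRNA reads in ovary and 1.53% and 1.22% in testis (2.28 ± 0.22, adjusted p = 0.000201), and the largest rise was that of snoRNA:Tudor-SN-a, from 0.0427% and 0.0899% to 0.599% and 0.388% (2.96 ± 0.44, adjusted p = 0.00159). snoRNA:Irbp-a was also higher, on 6 and 9 reads in ovary and 4 and 14 in testis (2.66 ± 0.55, adjusted p = 0.00679). The shares of the tissues did not overlap for any of the snoRNAs named in this comparison.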

How the data were processed

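Per the submitters' processing notes, reads were processed with Trim Galore and Bowtie 1.1.1; how reads with several matches were treated, which build was used and where the scaling came from is not given in the sources used here. The authors deposited 1 table per tissue. Replicate 1 of each control is a whole read count, and for replicate 2 the deposited signal is whole reads multiplied by 1 factor (0.699 in ovary, 0.403 in testis); dividing by it gave whole reads for 100% of values, with a tolerance of 0.001. The p-value column that the authors deposited was not used. An Ensembl annotation of the fly supplied symbols for all 484 FlyBase identifiers and was not used for positions.

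Rows were joined on name and strand. Shares were fitted with limma 3.58.1 (eBayes with trend, R 4.3.3) on log2((value + 1)/class total) for TE, tRNA and snoRNA rows averaging 5 or more in the 4 libraries; strand ratios were fitted on log2((Plus + 1)/(Minus + 1)) for entries with a mean of at least 20. Tests were two-sided, with 2 residual degrees of freedom and Benjamini-Hochberg adjustment over each fit. Because the tables were normalized separately, only shares and ratios within a library were tested across them. edgeR 4.0.16 on the whole reads, whose count test called 39 TE rows higher and 167 lower, is an alternative. The scripts were checked on simulated data. Levels of the small classes and library composition have no test; their strand ratios are in the strand fit.

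P-values measure only the spread between 2 biological replicates per group, which eBayes combines with the spread of the other rows. Beside the 2 residual degrees of freedom, the other rows gave 4.30 in the share fit and 3.54 in the strand fit. Floors use 3 reads and cover counting error only; PCR duplicates were not marked. Named rows were taken, per direction, from the 10 called TE rows, 4 tRNA and 4 snoRNA rows and 6 strand entries of largest change, the 5 highest TE rows per tissue, up to 10 entries with a switched majority strand, and members of short lists; some are given only by counts. The members and lists were chosen with earlier results of these data known.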

Additional observations from a re-analysis of the deposited data

How the results depend on the processing

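Of 1755 values of named results under the alternatives, 1615 kept direction and side of the threshold, 93 lost and 23 gained a call, and 24 reversed. Centring on the class median gave 100 TE rows higher and 88 lower, and turned FW Minus to 0.95, TART_B1 Minus to 1.27, R1_DM Minus to 0.013, GTWIN_I Minus to 1.18, GTWIN_LTR Minus to 0.50, GYPSY10_I Minus to 0.35, GYPSY5_LTR Minus to 0.58, IDEFIX_LTR Minus to 1.38 and Plus to 1.35, TABOR_LTR Minus to 0.25, DMSAT6 Plus to 0.83 and Copia1-LTR_DM Minus to 0.066 (log2 differences). A TE total without DMHMR1, 5S_DM and NTS_DM, chosen after seeing the data, gave 0.10 for FW Minus, 0.42 for TART_B1 Minus, 0.33 for GTWIN_I Minus, and 0.53 and 0.50 for IDEFIX_LTR Minus and Plus. A pseudocount of 5 gave 0.44 for IDEFIX_LTR Plus, 0.15 for DMSAT6 Plus, and 78 snoRNA calls with 57 higher. Counting identical rows once left fewer rows to test: 89 were higher in all classes, and 42 tRNA rows were called, 29 higher and 13 lower. A minimum mean of 20 gave 58 tRNA rows higher and a tRNA median of -0.24. With the 5 highest rows left out of the TE total, the log2 ratios rose to 9.01 for Suste Minus, 5.62 for Suste Plus, 6.68 for AAGAG Minus and 4.08 for 45S rDNA Minus, since that total is smaller in testis. Otherwise the cause was not tested.

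Leaving out each library in turn assumes that the lone library left varies like the other group. Calls ranged from 244 to 416 (137 to 268 lower), TE rows lower from 107 to 163, tRNA calls from 91 to 158 (23 to 62 lower), snoRNA calls from 13 to 65 (6 to 25 higher, 7 to 44 lower) and strand differences from 11 to 60 (5 to 28 toward Plus, 6 to 34 toward Minus). Log2 differences ranged from -0.52 to 0.25 for TART_B1 Minus, -0.11 to 0.057 for IDEFIX_LTR Minus and -0.56 to 0.45 for IDEFIX_LTR Plus. With the replicate block, 376 share calls and 60 strand calls were made. The block ended the calls of GYPSY5_LTR Minus (adjusted p = 0.0604), QUASIMODO_I Minus (0.0807) and ZAM_I Plus (0.0518), and of the strand of MDG1_LTR and NOMAD_LTR (0.0544 each). No label says that a number marks a batch, so the numbers were not taken as pairs: same-numbered libraries had a correlation of 0.03 in their deviations over 2 pairs (0.11 in TE rows). The spike-in mix followed the number in all 6 groups, with spike 1 at 29.8% or more of spike reads in each replicate 1 and at 0.814% or less in each replicate 2; its part in the results was not tested. Depth limits rows with few testis reads: 60 TE rows and 59 snoRNA rows averaged under 5 in testis only. In ovary only, 52 tRNA rows averaged under 5.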

Other observations

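The ovary table also holds females with an added Y chromosome, which give values for the entries that set testis apart. The XXYohio columns are headed with another abbreviation and were assigned by elimination. DMHMR1 Plus gave 0.542 and 0.790 reads per 100 TE reads in XXYcongo ovary and 0.783 and 0.738 in XXYohio ovary, against 0.0337 and 0.0243 in XX ovary. Suste Minus gave 1.46 and 2.40 in XXYcongo and 2.12 and 2.39 in XXYohio, against 0.190 and 0.189. PROTOP Plus gave 0.834 and 1.23 in XXYcongo and 1.23 and 1.40 in XXYohio, against 0.376 and 0.368. For these 3 rows the 4 libraries with an added Y lay above both XX ovary libraries and below both XY testis libraries.

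For Suste, PROTOP and PROTOP_B the Minus share of the reads also lay between the control tissues. Suste had 91.3% and 94.1% Minus reads in XXYcongo ovary and 92.1% and 93.0% in XXYohio ovary, against 71.0% and 76.8% in XX ovary and 96.5% and 97.0% in XY testis. PROTOP had 47.8% and 38.1% in XXYcongo and 39.7% and 34.4% in XXYohio, against 67.8% and 67.7% in XX ovary and 22.9% and 15.9% in XY testis. PROTOP_A in XXYcongo replicate 1, at 31.9%, lay within the XX ovary values of 31.5% and 32.4%. DMHMR1 had 6.56% and 4.14% in XXYcongo and 4.86% and 5.24% in XXYohio. It had 8.24% and 20.5% in XX ovary and 5.59% and 6.29% in XY testis, so only XXYcongo replicate 1 lay between.

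HETA Minus, lower in testis, was between the control tissues too, at 0.648 and 0.656 in XXYcongo and 0.561 and 0.653 in XXYohio, against 0.770 and 0.937 in XX ovary and 0.0214 and 0.0165 in XY testis. MAX_I Minus was not, at 4.92 and 5.15 in XXYcongo and 5.85 and 5.77 in XXYohio, against 5.01 and 4.72 in XX ovary. TAHRE Minus gave 0.659 and 0.549 in XXYcongo and 0.536 and 0.559 in XXYohio. Its XXYcongo replicate 1 lay within the XX ovary values of 0.656 and 0.783. BLOOD_I Plus gave 0.413 and 0.540 in XXYcongo and 0.459 and 0.360 in XXYohio, on both sides of 0.419 and 0.462 in XX ovary. AAGAG satellite Minus gave 0.00265 in XXYcongo replicate 1 and 0 reads in the other 3 of these libraries, against 0.0195 and 0.0163 in XX ovary and 1.34 and 0.930 in XY testis. These values were not tested here.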
